A study of Homo sapiens with 27 samples.

Results

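The 10 genes described here control the G1 phase of the cell cycle: the retinoblastoma gene RB1, the inhibitor gene CDKN2A, the D-type cyclins CCND1, CCND2 and CCND3, the E-type cyclins CCNE1 and CCNE2, the kinases CDK4 and CDK6, and the transcription factor E2F1. They were chosen by symbol, and each was listed once among the 41686 human genes of the total RNA table and once among the 34742 of the poly(A) table. All libraries came from SHP77, an established human small cell lung cancer line. One experiment compared lentiviral knockdown of circRMST, a circular RNA, by shRNA 1 or shRNA 2 with a shGFP control (n = 2 libraries each), in cells that had all been selected with puromycin (3 µg/ml, 3 days or more). The other compared SOX2 siRNA 1 and 2 and NKX2-1 siRNA 1 and 2 (n = 2 each) with si-control (n = 3), all collected 72 hours after transfection with RNAiMAX. SOX2 and NKX2-1 are transcription factors. Values below are deposited normalized counts per gene, and differences are log2 values from limma, on the log2(value + 1) scale, averaged over both reagents of a target, with Benjamini-Hochberg adjusted p-values over all genes tested.

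In a cycling cell, D-type cyclins bind CDK4 or CDK6 and cyclin E binds CDK2, and these kinases phosphorylate the RB protein. Unphosphorylated RB holds E2F factors inactive, and its phosphorylation frees them to transcribe genes for DNA synthesis, among them the E-type cyclins and E2F1 itself. CDKN2A encodes p16, which binds CDK4 and CDK6 and blocks their partnership with cyclin D. Small cell lung cancer is known for frequent loss of RB function, but RNA levels of a gene do not report the state of its protein or its mutations.

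The libraries held 46.9 to 57.4 M reads in the shRNA experiment and 15.5 to 50.1 M in the siRNA experiment. The targeted genes were read first. SOX2 was at 1142 ± 54.0 (SD, n = 3) in si-control and at 423 ± 36.2 (SD, n = 4) over its own siRNAs, which is 2.70-fold lower (log2 difference -1.43, SE 0.05, adjusted p = 9.85e-19). NKX2-1 was at 2234 ± 110.0 (SD, n = 3) and 915 ± 124 (SD, n = 4), 2.45-fold lower (log2 difference -1.29, SE 0.05, adjusted p = 1.26e-17). The knockdown of circRMST could not be checked here, since the RMST entry sums reads of the whole gene; that entry read 289.5 ± 20.1 (SD, n = 2) in shGFP and 268 ± 25.2 (SD, n = 4) with the shRNAs (log2 difference -0.12, SE 0.13, adjusted p = 0.478). The factors also moved with each other's knockdown: SOX2 was 1.94-fold higher after NKX2-1 knockdown (log2 difference 0.96, SE 0.05, adjusted p = 1.43e-14) and NKX2-1 1.16-fold higher after SOX2 knockdown (log2 difference 0.21, SE 0.05, adjusted p = 6.50e-04). After circRMST knockdown NKX2-1 was 1.33-fold lower (log2 difference -0.41, SE 0.08, adjusted p = 1.66e-04) and SOX2 1.18-fold higher (log2 difference 0.24, SE 0.06, adjusted p = 0.00238). All 8 neuroendocrine markers on the list (among them CHGA, SYP, INSM1 and GRP) averaged at least 10 normalized counts in both tables.

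Markers of the tumour's own and of other cell types moved with the circRMST groups. The summed level of the 8 neuroendocrine markers was 73254 to 77578 in shGFP and 39767 to 44963 with the shRNAs. The 7 fibroblast markers, 3 of which averaged at least 10, summed to 207 to 265 and 374 to 814, and the 8 blood and endothelial markers, 2 of which did, to 432 to 463 and 167 to 208. The 3 markers of other subtypes (NEUROD1, POU2F3 and YAP1) summed to 41.8 to 74.0 and to 0 to 1.96, and none of them averaged at least 10. The 4 epithelial markers, 3 of which averaged at least 10, summed to 13626 to 13770.1 and 10263 to 12588. No listed marker was at 0 in all libraries. The share of reads on RN7SL genes was 0.180% to 0.186% in shGFP and 0.379% to 0.467% with the shRNAs. Their part in the members' differences was not tested. In the siRNA table the neuroendocrine sum was 69259 to 70022 in si-control and 70429.8 to 77304 with the siRNAs, and the 4 epithelial markers summed to 20418 to 20626 and 12918 to 17248. The fibroblast sum was 84.9 to 116 and 67.0 to 291, and the blood and endothelial sum 383 to 404 and 99.8 to 511.

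Genes were tested where their mean over a table reached 10 normalized counts, which 9 members did. Of these 9, 6 were higher and 0 lower after circRMST knockdown, against 53.7% of all 19068 tested genes that passed in either direction (27.8% higher and 25.9% lower). After SOX2 knockdown 4 were higher and 2 lower, where 56.3% of 16750 genes passed (27.6% higher and 28.7% lower). After NKX2-1 knockdown 6 were higher and 1 lower, where 39.9% passed (18.5% higher and 21.4% lower). The median log2 difference of the members was 0.31, 0.12 and 0.21 in these comparisons, beside 0.00, 0.01 and 0.00 over all genes tested. The share of all genes that passed was itself large in each comparison. The SOX2 and NKX2-1 comparisons share their si-control libraries. CCND2, the remaining member, was under the minimum of 10 normalized counts in both tables. Whether a lower level reflects less RNA per cell or another mixture of cells cannot be told apart in these bulk libraries.

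The scale mattered for the circRMST experiment. When every shRNA library was given the same total count, the median of all genes moved by -0.15, the split of all calls went from 5294 higher and 4936 lower to 3635 and 6589, and the members from 6 higher and 0 lower to 3 and 3. CDK6, CCNE1 and E2F1 were the 3 called higher on both scales. The mitochondrial gene MT-RNR2 alone held 40.5% to 41.1% of reads in shGFP and 41.7% to 45.4% with the shRNAs. With equal totals without mitochondrial and RN7SL genes, the median moved by -0.059 and all calls stood at 4559 higher and 5501 lower. The members were then 5 higher and 1 lower, with CCND3 and RB1 called higher besides those 3. In the NKX2-1 comparison equal totals over all genes took the split of all calls from 3092 higher and 3592 lower to 4225 and 2643. The members stayed at 6 and 1 there. SOX2 and NKX2-1 knockdown differed in 6 of the 9 members, where 55.8% of all genes passed: 4 were higher and 2 lower with SOX2, and 3 and 3 with equal totals.

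**Figure D1:**
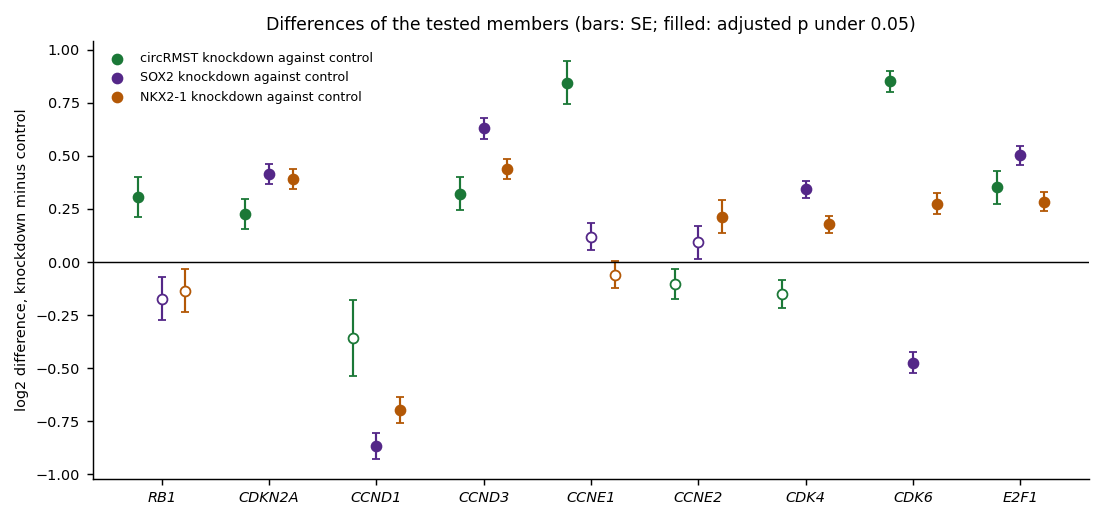
Log2 difference from control (y axis) for the 9 tested members (x axis) in the circRMST, SOX2 and NKX2-1 knockdowns; bars are SE, filled points have an adjusted p under 0.05 and open points do not. CCND1 lies lowest in the SOX2 and NKX2-1 knockdowns at -0.87 and -0.70, and CDK6 lies at 0.85, -0.47 and 0.28 in the circRMST, SOX2 and NKX2-1 knockdowns.

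CDK6, which with CDK4 forms the kinase pair of the D-type cyclins (ENSG00000105810.9, chromosome 7, 92604921 to 92836573, GRCh38.p14), was the one member called lower after SOX2 knockdown and higher after NKX2-1 knockdown. In poly(A) RNA it read 1634, 1790.2 and 1699.8 in si-control, 1254 and 1402 with SOX2 siRNA 1, 1099 and 1177 with SOX2 siRNA 2, 2157 and 1929 with NKX2-1 siRNA 1 and 2050.3 and 2134 with NKX2-1 siRNA 2. Every SOX2 siRNA library lay below and every NKX2-1 siRNA library above all 3 control libraries. CDK6 was 1.39-fold lower after SOX2 knockdown (log2 difference -0.47, SE 0.05, adjusted p = 5.50e-09) and 1.21-fold higher after NKX2-1 knockdown (log2 difference 0.28, SE 0.05, adjusted p = 6.63e-05). The direct comparison of SOX2 with NKX2-1 knockdown gave a difference of 1.68-fold (log2 difference -0.75, SE 0.05, adjusted p = 1.49e-13).

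From low to high the order of group means for CDK6 was SOX2 siRNA 2, SOX2 siRNA 1, si-control, NKX2-1 siRNA 1 and NKX2-1 siRNA 2, and the last neighbours, 2043 ± 161 (SD, n = 2) and 2092 ± 59.0 (SD, n = 2), did not differ beyond their spread (log2 difference 0.04, SE 0.07, adjusted p = 0.747). In total RNA CDK6 read 4322 and 4005 in the shGFP libraries, 7008 and 7072 with circRMST shRNA 1 and 8017 and 7988 with circRMST shRNA 2. All 4 knockdown libraries were above both controls, a 1.80-fold rise (log2 difference 0.85, SE 0.05, adjusted p = 1.26e-12). CDK6 overlaps CDK6-AS1 and 2 other annotated genes, whose reads cannot be told apart from its own if counting ignored strand.

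Because CDK6 moved apart under the SOX2 and NKX2-1 siRNAs, its promoter windows in the RefSeq table (GRCh38.p14, 250 bases before to 50 after a start site) were searched on both strands for short words of the SOX factors (ACAAAG or ACAATG) and of the NKX2 factors (TCAAGTG or TTAAGTG). The window below is the second of 2 for CDK6, at chr7:92833910-92834209 on the minus strand, printed 5′ to 3′ on that strand with the single SOX word in capitals.
CDK6: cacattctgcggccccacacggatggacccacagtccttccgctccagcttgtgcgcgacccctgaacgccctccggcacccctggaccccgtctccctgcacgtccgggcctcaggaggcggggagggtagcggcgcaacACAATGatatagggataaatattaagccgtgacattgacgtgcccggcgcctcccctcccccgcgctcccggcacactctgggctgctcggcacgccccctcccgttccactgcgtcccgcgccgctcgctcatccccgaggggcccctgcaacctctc
The first CDK6 window, at chr7:92836524-92836823, held none of these words. SOX words were in 4 of the 11 windows found for the members (36.4%) and in 24.5% of all 35116 windows, and NKX2 words in 0 of 11 and 4.86%. The table matched windows for 7 members. One of the windows with a SOX word is that of RB1, at chr13:48476200-48476499. It lies near the end of the gene span, 48303751 to 48481890, and not at its first base. A word match is a description of the letters and says nothing on binding.

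CDK4, the partner kinase (ENSG00000135446.16, chromosome 12, 57747727 to 57752310), read 1818, 1799 and 1793 in si-control, 2344 and 2333 with SOX2 siRNA 1, 2206 and 2267 with SOX2 siRNA 2, 2016 and 2162 with NKX2-1 siRNA 1 and 2019 and 1971 with NKX2-1 siRNA 2. Its 8 siRNA knockdown libraries all exceeded the 3 controls, which lay within 1793 to 1818. The rise was 1.27-fold after SOX2 knockdown (log2 difference 0.34, SE 0.04, adjusted p = 2.56e-08) and 1.13-fold after NKX2-1 knockdown (log2 difference 0.18, SE 0.04, adjusted p = 6.01e-04). CDK4 was higher with the SOX2 than with the NKX2-1 siRNAs (log2 difference 0.16, SE 0.04, adjusted p = 3.65e-04). In total RNA it read 1773 and 1866 in the shGFP libraries, 1631 and 1543 with circRMST shRNA 1 and 1729 and 1660.0 with circRMST shRNA 2. The 4 shRNA libraries were below both controls there, by 1.11-fold, and the test was not passed (log2 difference -0.15, SE 0.06, adjusted p = 0.0544), while it was under 6 of the 16 alternatives: with equal totals (-0.30, adjusted p = 6.03e-04), with equal totals without mitochondrial and RN7SL genes, with quantile normalization, with a minimum mean of 50, with edgeR (-0.17, adjusted p = 0.0305) and with DESeq2 (-0.17, adjusted p = 0.0412). CDK4 overlaps TSPAN31 in the annotation, and reads from both cannot be told apart if counting ignored strand.

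**Figure D2:**
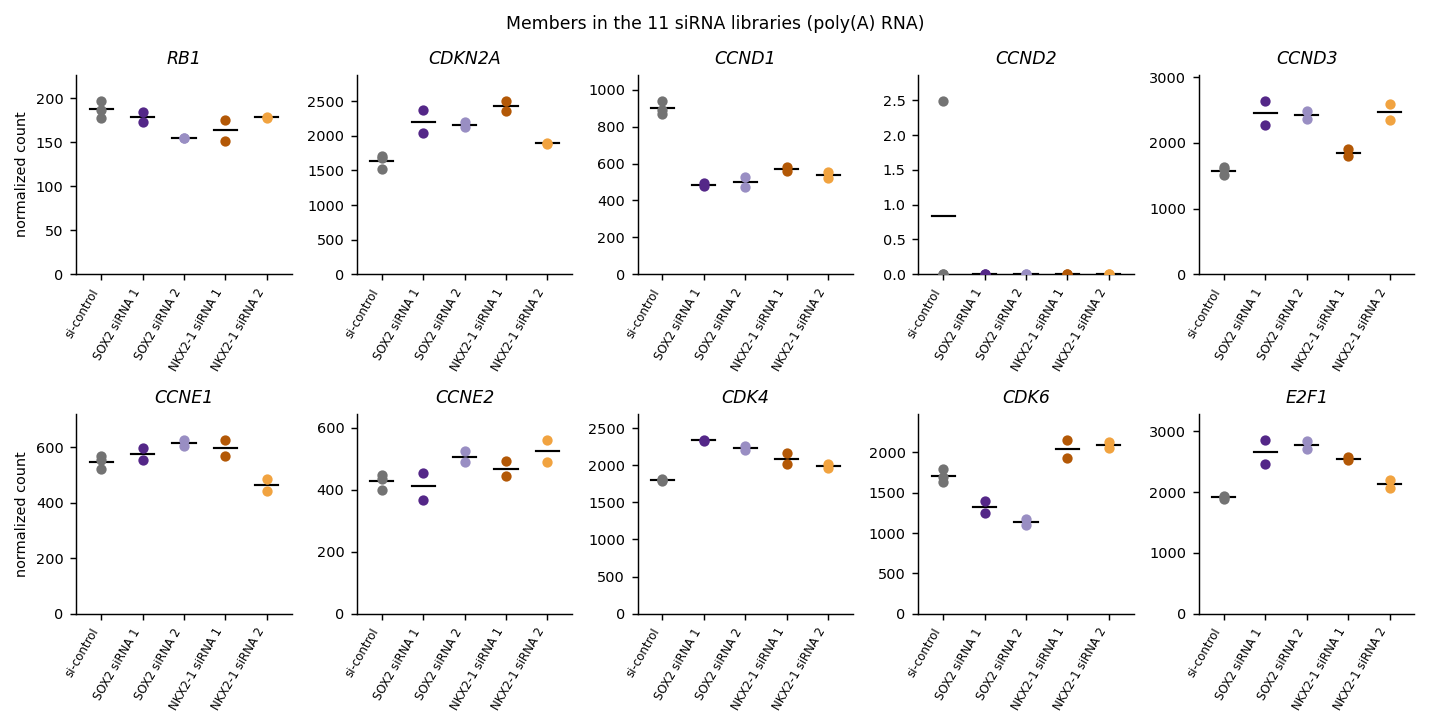
Normalized counts (y axis, from 0) of the 10 members in the 11 siRNA libraries by group (x axis); points are libraries and lines are group means. CDK6 is lowest with SOX2 siRNA 2 and highest with the NKX2-1 siRNAs, and CCND1 lies below its controls in all 8 knockdown libraries.

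The D-type cyclins link growth signals to CDK4 and CDK6. CCND1, cyclin D1 (ENSG00000110092.3, chromosome 11, 69641156 to 69654474), read 941, 868 and 892 in si-control, 493 and 479 with SOX2 siRNA 1, 475 and 526 with SOX2 siRNA 2, 582 and 559 with NKX2-1 siRNA 1 and 555 and 523 with NKX2-1 siRNA 2. All 8 knockdown libraries were below every control library. It was 1.82-fold lower after SOX2 knockdown (log2 difference -0.87, SE 0.06, adjusted p = 1.67e-12) and 1.62-fold lower after NKX2-1 knockdown (log2 difference -0.70, SE 0.06, adjusted p = 3.40e-10), the sole member called lower in the latter. The fall was larger with the SOX2 siRNAs (log2 difference -0.17, SE 0.06, adjusted p = 0.012), although the lowest NKX2-1 library and the highest SOX2 library overlapped. That difference was not past the threshold without SOX2 siRNA 2 replicate 1 (-0.13, adjusted p = 0.0763) or without NKX2-1 siRNA 2 replicate 1 (-0.15, adjusted p = 0.0552).

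In order of group means, CCND1 rose from SOX2 siRNA 1 at 486 ± 9.97 (SD, n = 2) over SOX2 siRNA 2 at 501 ± 36.0 (SD, n = 2), NKX2-1 siRNA 2 at 539 ± 22.1 (SD, n = 2) and NKX2-1 siRNA 1 at 570.4 ± 16.8 (SD, n = 2) to si-control at 900.3 ± 37.3 (SD, n = 3). Neither pair of reagents to the same target differed by the test (log2 difference 0.04, SE 0.08, adjusted p = 0.792 for SOX2; log2 difference -0.08, SE 0.08, adjusted p = 0.503 for NKX2-1). In total RNA CCND1 read 157 and 221 in the shGFP libraries, 201 and 168 with circRMST shRNA 1 and 105 and 126 with circRMST shRNA 2. Libraries with shRNA 1 overlapped the controls and those with shRNA 2 lay below them. The average over both shRNAs did not pass (log2 difference -0.36, SE 0.18, adjusted p = 0.0966), with equal totals it did (-0.50, adjusted p = 0.0218), and without shGFP replicate 1 it did too (-0.60, adjusted p = 0.0272).

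CCND3, cyclin D3 (ENSG00000112576.12, chromosome 6, 41934933 to 42050035), went the other way. It read 1599.9, 1506 and 1631 in si-control, 2646 and 2275 with SOX2 siRNA 1, 2373 and 2489.7 with SOX2 siRNA 2, 1795 and 1908 with NKX2-1 siRNA 1 and 2595 and 2355 with NKX2-1 siRNA 2. All 8 knockdown libraries exceeded the controls. CCND3 was 1.55-fold higher after SOX2 knockdown (log2 difference 0.63, SE 0.05, adjusted p = 1.83e-11) and 1.36-fold higher after NKX2-1 knockdown (log2 difference 0.44, SE 0.05, adjusted p = 4.29e-08), and higher with the SOX2 than with the NKX2-1 siRNAs on average (log2 difference 0.19, SE 0.05, adjusted p = 8.04e-04). In total RNA it read 758 and 776 in the shGFP libraries, 1074 and 1010.2 with circRMST shRNA 1 and 852 and 919 with circRMST shRNA 2. Every knockdown library was above both controls (log2 difference 0.32, SE 0.08, adjusted p = 0.00136). CCND3 was called higher with shRNA 1 alone and not with shRNA 2 alone. With equal totals the call on the average of both was lost (0.18, adjusted p = 0.0616). The gene overlaps a long non-coding RNA and a pseudogene.

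CCND3 has 3 windows in the promoter table, and the one shown, at chr6:42048639-42048938 on the minus strand, held the most SOX words of any member. The word ACAAAG matched on the opposite strand at both places in capitals, at positions -71 and -6 from the start site.
CCND3: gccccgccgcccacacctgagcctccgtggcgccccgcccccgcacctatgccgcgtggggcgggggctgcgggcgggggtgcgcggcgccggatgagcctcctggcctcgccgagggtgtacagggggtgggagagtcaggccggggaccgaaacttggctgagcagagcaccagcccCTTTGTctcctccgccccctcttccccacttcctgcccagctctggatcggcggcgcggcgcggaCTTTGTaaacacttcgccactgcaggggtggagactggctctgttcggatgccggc
The other CCND3 windows held no SOX, NKX2 or E2F word.

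CCND2, cyclin D2 (ENSG00000118971.7, chromosome 12, 4273762 to 4305353), was at or near the floor throughout. It read 11.3 and 3.8 in the shGFP libraries, 5.24 and 10.8 with circRMST shRNA 1 and 0 and 0 with circRMST shRNA 2. In poly(A) RNA 2.5, 0 and 0 were listed in si-control, and all 8 siRNA knockdown libraries were at 0. A count of 0 allows up to 3 reads in a library, counting error only, and no fold is given.

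The E-type cyclins activate CDK2 late in G1. CCNE1, cyclin E1 (ENSG00000105173.13, chromosome 19, 29811991 to 29824312), read 409 and 371 in the shGFP libraries, 752 and 585 with circRMST shRNA 1 and 749.8 and 731 with circRMST shRNA 2. All 4 knockdown libraries were above both controls. The rise was 1.80-fold (log2 difference 0.85, SE 0.10, adjusted p = 2.91e-07), and both shRNAs passed alone (log2 difference 0.77, SE 0.12, adjusted p = 9.99e-06 for shRNA 1; log2 difference 0.92, SE 0.12, adjusted p = 9.44e-07 for shRNA 2). Of the 9 members, 4 were higher (CDK6, CCNE1, CCND3 and RB1) and 1 lower (CDK4) with shRNA 1 alone, where 51% of all genes passed. With shRNA 2 alone, where 47.4% passed, 4 were higher (CDK6, CCNE1, E2F1 and CDKN2A) and 1 lower (CCND1). Only CDK6 and CCNE1 were called with both. The count with shRNA 2 was 3 and 0 without circRMST shRNA 2 replicate 1.

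In poly(A) RNA CCNE1 read 520.4, 556 and 569 in si-control, 553 and 599 with SOX2 siRNA 1, 627 and 607 with SOX2 siRNA 2, 567 and 627 with NKX2-1 siRNA 1 and 487 and 443 with NKX2-1 siRNA 2. Neither knockdown passed on average (log2 difference 0.12, SE 0.06, adjusted p = 0.115 for SOX2; log2 difference -0.06, SE 0.06, adjusted p = 0.502 for NKX2-1). The NKX2-1 siRNAs lay on opposite sides of the control, siRNA 1 at 597 ± 42.1 (SD, n = 2) and siRNA 2 at 465 ± 31.0 (SD, n = 2), and differed from each other (log2 difference -0.36, SE 0.08, adjusted p = 0.00181). CCNE1 was higher with the SOX2 than with the NKX2-1 siRNAs (log2 difference 0.18, SE 0.06, adjusted p = 0.0124), a call lost with equal totals (0.13, adjusted p = 0.0772) and without NKX2-1 siRNA 1 replicate 1 (0.14, adjusted p = 0.0732) or siRNA 2 replicate 2 (0.14, adjusted p = 0.0729).

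CCNE2, cyclin E2 (ENSG00000175305.17), read 2835 and 2279.9 in the shGFP libraries, 2441 and 2418 with circRMST shRNA 1 and 2226 and 2393 with circRMST shRNA 2. The groups overlapped (log2 difference -0.10, SE 0.07, adjusted p = 0.238). A fall was called with equal totals (-0.25, adjusted p = 0.0059) and when shGFP replicate 2 was left out (-0.26, adjusted p = 0.00974), and the sign turned without shGFP replicate 1 (0.05, adjusted p = 0.603). In poly(A) RNA it read 447, 436 and 399 in si-control, 368 and 456 with SOX2 siRNA 1, 525 and 489 with SOX2 siRNA 2, 492 and 443 with NKX2-1 siRNA 1 and 561 and 489.9 with NKX2-1 siRNA 2. After SOX2 knockdown no change was called (log2 difference 0.09, SE 0.08, adjusted p = 0.318). After NKX2-1 knockdown it was 1.16-fold higher (log2 difference 0.21, SE 0.08, adjusted p = 0.0304), with overlapping groups, and the call was lost without si-control replicate 2 (adjusted p = 0.0554) or 3 (adjusted p = 0.16), without NKX2-1 siRNA 1 replicate 1 (adjusted p = 0.109) and without NKX2-1 siRNA 2 replicate 1 (adjusted p = 0.148). It was also lost with DESeq2 (adjusted p = 0.0683) and with no filter on low values (adjusted p = 0.176). The gene overlaps INTS8 and NDUFAF6 in the annotation.

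RB1, the pocket protein that restrains E2F (ENSG00000139687.13, chromosome 13, 48303751 to 48481890), read 543 and 514 in the shGFP libraries, 668 and 753 with circRMST shRNA 1 and 578 and 628 with circRMST shRNA 2. All 4 shRNA libraries were above both controls, and RB1 was called higher with shRNA 1 alone and not with shRNA 2 alone. The rise was 1.24-fold (log2 difference 0.31, SE 0.09, adjusted p = 0.00752), was lost with equal totals (0.16, adjusted p = 0.15) and also if shGFP replicate 2 was left out (0.27, adjusted p = 0.0721). In poly(A) RNA RB1 read 187, 178 and 197 in si-control, 184 and 172 with SOX2 siRNA 1, 155 and 154 with SOX2 siRNA 2, 176 and 151 with NKX2-1 siRNA 1 and 179 and 178 with NKX2-1 siRNA 2. The knockdown and control groups overlapped after SOX2 knockdown (log2 difference -0.17, SE 0.10, adjusted p = 0.15) and after NKX2-1 knockdown (log2 difference -0.13, SE 0.10, adjusted p = 0.305). No difference of these averages was detectable at this spread. With SOX2 siRNA 2 alone both libraries lay below the controls. RB1 was called lower there only with no filter on low values (-0.27, adjusted p = 0.0384) and with equal totals without mitochondrial and RN7SL genes (-0.31, adjusted p = 0.0342). The RB1 locus also holds LPAR6 and 3 other annotated genes.

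CDKN2A (ENSG00000147889.17, chromosome 9, 21967752 to 21995324), which encodes p16 and, from another reading frame, ARF, read 1713, 1523 and 1673 in si-control, 2367 and 2042 with SOX2 siRNA 1, 2193 and 2130.0 with SOX2 siRNA 2, 2356 and 2509 with NKX2-1 siRNA 1 and 1895 and 1886 with NKX2-1 siRNA 2. Every knockdown library was above every control library. It was 1.33-fold higher after SOX2 knockdown (log2 difference 0.42, SE 0.05, adjusted p = 4.02e-08) and 1.31-fold higher after NKX2-1 knockdown (log2 difference 0.39, SE 0.05, adjusted p = 2.62e-07), and the direct comparison of both did not pass (log2 difference 0.02, SE 0.05, adjusted p = 0.676). The row does not separate the transcripts of the reading frames, and it overlaps CDKN2A-AS1 and CDKN2B-AS1. In total RNA it read 1307 and 1556 in the shGFP libraries, 1634 and 1633 with circRMST shRNA 1 and 1737 and 1677 with circRMST shRNA 2. The rise there was 1.17-fold (log2 difference 0.23, SE 0.07, adjusted p = 0.0102), called with shRNA 2 alone and not with shRNA 1 alone. The call on the average was lost with equal totals, with all genes (0.08, adjusted p = 0.36) or without mitochondrial and RN7SL genes (0.17, adjusted p = 0.0598). It was also lost with quantile normalization (0.15, adjusted p = 0.107) and with no filter on low values (adjusted p = 0.0627). The log2 difference shrank to 0.10 with shGFP replicate 1 left out.

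**Figure D3:**
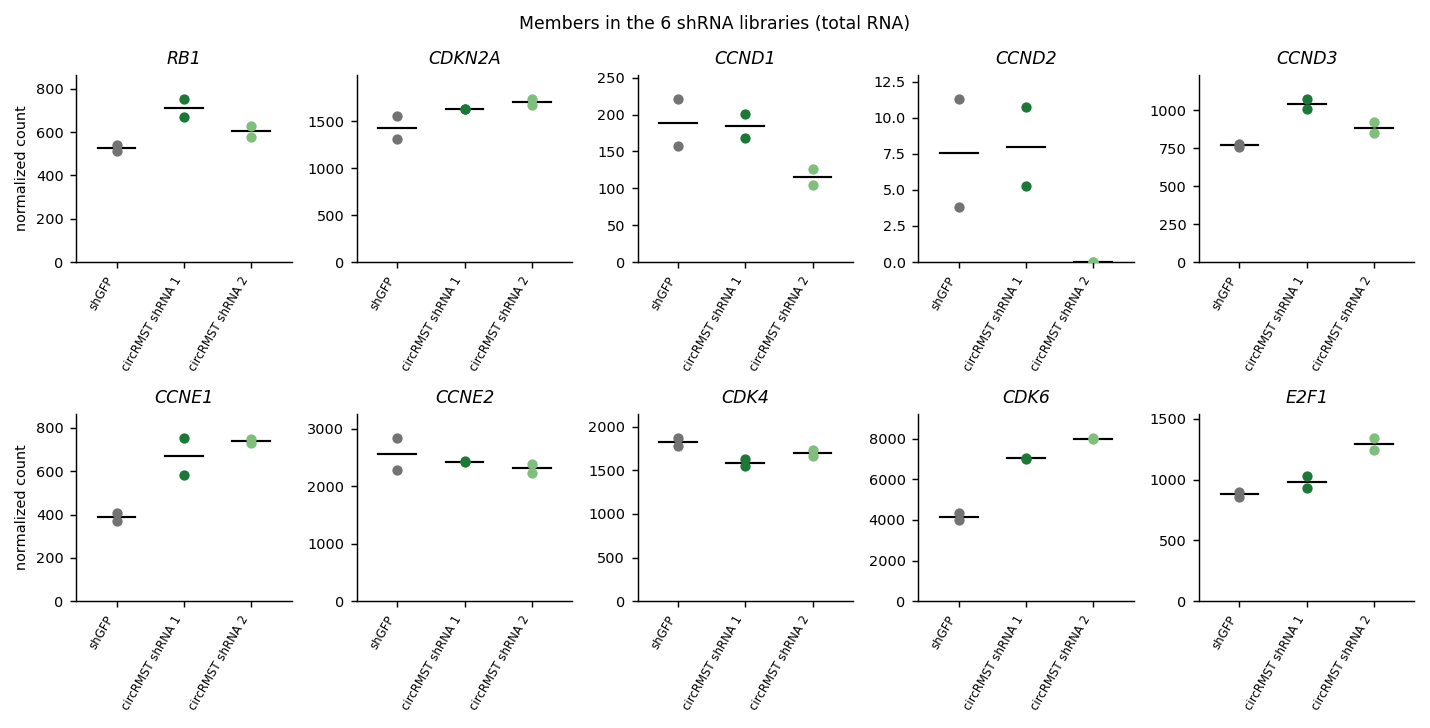
Normalized counts (y axis, from 0) of the 10 members in the 6 shRNA libraries by group (x axis); points are libraries and lines are group means. CDK6 and CCNE1 lie above both shGFP libraries in all 4 knockdown libraries, and CCND1 is lowest with shRNA 2.

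The other CDK inhibitors were read as a list of 6: CDKN1A (p21), CDKN1B (p27), CDKN1C (p57), CDKN2B (p15), CDKN2C (p18) and CDKN2D (p19). After circRMST knockdown 2 were higher and 1 lower, where 53.7% of all genes passed in either direction. CDKN1A rose 2.31-fold (log2 difference 1.21, SE 0.07, adjusted p = 3.14e-12), from 867 ± 89.6 (SD, n = 2) to 2013 ± 308 (SD, n = 4). CDKN2B rose (log2 difference 1.02, SE 0.15, adjusted p = 4.98e-06) and CDKN1C fell (log2 difference -1.14, SE 0.32, adjusted p = 0.00445), a call lost without shGFP replicate 2. CDKN1B, CDKN2C and CDKN2D did not pass, with log2 differences of 0.16, 0.16 and -0.10. The mean of CDKN1C over these libraries was under 50 normalized counts.

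After SOX2 knockdown (56.3% of all genes passed) 3 inhibitors were higher, with log2 differences of 0.51 for CDKN1A, 0.34 for CDKN2C and 0.25 for CDKN1B, and 2 were lower, at -0.71 for CDKN1C and -0.36 for CDKN2D. After NKX2-1 knockdown (39.9% passed) 4 were higher and 0 lower: CDKN1C at 0.45 with overlapping groups, CDKN2C at 0.32, CDKN1B at 0.31 and CDKN1A at 0.31. CDKN2B did not pass in either (0.00 and 0.03), nor did CDKN2D after NKX2-1 knockdown (0.07). The list's median was 0.16, 0.12 and 0.31 in the circRMST, SOX2 and NKX2-1 knockdowns, beside medians over all genes of 0.00, 0.01 and 0.00.

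E2F1 (ENSG00000101412.12, chromosome 20, 33675477 to 33686385), the activator that RB restrains, was called higher in all 3 knockdowns on the average of both reagents. It was not called with circRMST shRNA 1 alone. In poly(A) RNA it read 1889, 1924 and 1928 in si-control, 2859.8 and 2459 with SOX2 siRNA 1, 2714 and 2840.0 with SOX2 siRNA 2, 2522 and 2579.5 with NKX2-1 siRNA 1 and 2199 and 2065 with NKX2-1 siRNA 2. Each of the 8 knockdown libraries exceeded the controls. The rise was 1.42-fold after SOX2 knockdown (log2 difference 0.50, SE 0.04, adjusted p = 2.12e-10) and 1.22-fold after NKX2-1 knockdown (log2 difference 0.28, SE 0.04, adjusted p = 9.12e-06), and larger with SOX2 (log2 difference 0.22, SE 0.04, adjusted p = 5.63e-05). Group means ran from si-control at 1914 ± 21.3 (SD, n = 3) over NKX2-1 siRNA 2 at 2132 ± 95.1 (SD, n = 2) and siRNA 1 at 2551 ± 40.8 (SD, n = 2) to SOX2 siRNA 1 at 2659 ± 284 (SD, n = 2) and siRNA 2 at 2777 ± 89.2 (SD, n = 2). Libraries of SOX2 siRNA 1 overlapped those of both neighbouring groups in this order. The call with NKX2-1 siRNA 2 alone was lost with DESeq2 (0.15, adjusted p = 0.0611), with the replicate block and with no filter on low values. It was also lost without any single si-control library, and the log2 difference shrank to 0.11 without NKX2-1 siRNA 2 replicate 1. In total RNA E2F1 read 859 and 902 in the shGFP libraries, 934 and 1026 with circRMST shRNA 1 and 1339 and 1239.6 with circRMST shRNA 2, above both controls in all 4 knockdown libraries (log2 difference 0.35, SE 0.08, adjusted p = 4.72e-04).

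E2F factors are known to act on the E2F1 gene itself, so its promoter window, at chr20:33686336-33686635 on the minus strand, is shown with 2 matches to E2F words in capitals (TTTCCCGC, TTTGGCGC, TTTCGCGC or TTTGCCGC, both strands). The first, at position -33 from the start site, matches on the strand opposite to the printed one and the second, at -20, on the printed one.
E2F1: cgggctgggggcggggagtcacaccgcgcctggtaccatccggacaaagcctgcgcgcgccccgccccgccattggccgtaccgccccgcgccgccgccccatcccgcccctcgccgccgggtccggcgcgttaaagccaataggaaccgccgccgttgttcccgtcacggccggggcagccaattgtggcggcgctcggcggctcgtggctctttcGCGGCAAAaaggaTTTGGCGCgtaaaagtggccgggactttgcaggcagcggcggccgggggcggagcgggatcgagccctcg
A SOX word, ACAAAG, is also in this window at -207, left in lower case. E2F words were in 3.32% of all 35116 windows, in 1 of 11 member windows, and in 11 of 28 windows (39.3%) of the E2F target genes listed next.

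As background for E2F activity, 20 E2F target genes were read, most of them genes of DNA synthesis. After SOX2 knockdown 16 were higher and 1 lower (27.6% and 28.7% of all genes), with a list median of 0.32, and 16 and 2 without SOX2 siRNA 1 replicate 1. MYBL2, a transcription factor of the cell cycle, rose most, from 1963 ± 96.2 (SD, n = 3) to 2978 ± 119 (SD, n = 4) (log2 difference 0.60, SE 0.04, adjusted p = 1.04e-12), followed by TYMS, thymidylate synthase (log2 difference 0.45, SE 0.07, adjusted p = 4.63e-06), and BRCA1, a DNA repair gene, was the one that fell (log2 difference -0.34, SE 0.05, adjusted p = 8.50e-07). After NKX2-1 knockdown 8 were higher and 2 lower (18.5% and 21.4% of all genes), with a median of 0.06, and 8 and 1 without NKX2-1 siRNA 2 replicate 1. The NKX2-1 reagents differed on this list: 9 were higher and 1 lower with siRNA 1 (median 0.12), 4 and 3 with siRNA 2 (median -0.0087), and 1 and 9 with siRNA 2 against siRNA 1. POLA1, a DNA polymerase subunit (log2 difference 0.36, SE 0.05, adjusted p = 4.02e-07), and RFC4, a clamp loader subunit (log2 difference 0.34, SE 0.05, adjusted p = 1.13e-06), rose most, and CDC6, a replication licensing factor, was among those that fell (log2 difference -0.20, SE 0.04, adjusted p = 1.01e-04).

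After circRMST knockdown 4 genes of this list were higher and 10 lower (27.8% and 25.9% of all genes), with a median of -0.16, and 3 and 15 with equal totals. UHRF1, a DNA methylation cofactor, fell from 2101 ± 22.8 (SD, n = 2) to 603 ± 158 (SD, n = 4) (log2 difference -1.84, SE 0.08, adjusted p = 1.28e-14), and TK1, thymidine kinase, from 534 ± 11.3 (SD, n = 2) to 231 ± 28.4 (SD, n = 4) (log2 difference -1.21, SE 0.12, adjusted p = 1.18e-08). PCNA, the replication clamp (log2 difference 0.68, SE 0.06, adjusted p = 3.72e-10), and EZH2, a histone methyltransferase (log2 difference 0.50, SE 0.05, adjusted p = 1.56e-08), rose most. With shRNA 1 alone 4 targets were higher and 11 lower (median -0.25, 51% of all genes passed), and E2F1 was not called. With shRNA 2 alone 3 were higher and 8 lower (median -0.07, 47.4% passed), and E2F1 was called higher. With shRNA 2 against shRNA 1, 6 targets were higher and 2 lower (19.1% passed), and E2F1 was higher. On the average of both shRNAs, E2F1 was called higher where 10 of 20 listed targets were called lower. Without shGFP replicate 1 the list stood at 4 higher and 8 lower.

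Of 26 other genes of the RB and E2F machinery, 4 were higher and 11 lower after circRMST knockdown (1 and 15 with equal totals), 16 and 3 after SOX2 knockdown, and 8 and 5 after NKX2-1 knockdown (14 and 4 with equal totals). In these comparisons 53.7%, 56.3% and 39.9% of all genes passed in either direction, so the circRMST count of 15 of 26 is near its background. Their medians were -0.10, 0.23 and 0.10. The 3 lower after SOX2 knockdown became 1 without si-control replicate 1, si-control replicate 2 or SOX2 siRNA 1 replicate 1, and the 8 higher after NKX2-1 knockdown became 5 without si-control replicate 1. E2F5, a factor usually counted among the repressors, rose with the circRMST shRNAs from 765 ± 4.5 (SD, n = 2) to 1851 ± 196 (SD, n = 4) (log2 difference 1.27, SE 0.07, adjusted p = 3.07e-13), with FBXW7, which marks cyclin E for degradation, next (log2 difference 0.29, SE 0.08, adjusted p = 0.00277). CDK2, the cyclin E kinase (log2 difference -0.64, SE 0.07, adjusted p = 1.81e-08), and CDK7 (log2 difference -0.44, SE 0.07, adjusted p = 1.26e-05) fell most there.

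E2F2, an activator like E2F1, rose most in both siRNA knockdowns, from 980.0 ± 59.3 (SD, n = 3) to 1592 ± 147 (SD, n = 4) with SOX2 (log2 difference 0.70, SE 0.05, adjusted p = 5.65e-13) and 1702 ± 262 (SD, n = 4) with NKX2-1 (log2 difference 0.78, SE 0.05, adjusted p = 1.29e-13). LIN9, of the MuvB complex, was next after SOX2 knockdown (log2 difference 0.67, SE 0.07, adjusted p = 1.40e-08), where LIN52 (log2 difference -0.18, SE 0.06, adjusted p = 0.0195) and TFDP2 (log2 difference -0.16, SE 0.05, adjusted p = 0.00532) fell. E2F7 was next after NKX2-1 knockdown (log2 difference 0.32, SE 0.06, adjusted p = 1.57e-04), where MNAT1 (log2 difference -0.28, SE 0.08, adjusted p = 0.00595) and CCNH (log2 difference -0.25, SE 0.06, adjusted p = 0.0011), both partners of CDK7, fell.

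**Figure D4:**
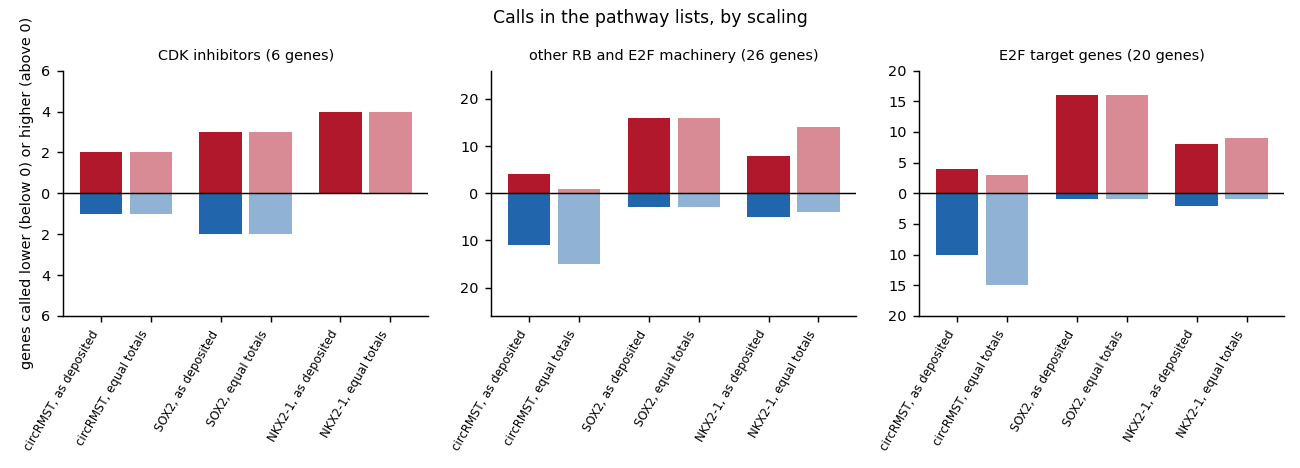
Numbers of genes called higher (above 0) and lower (below 0) in each list and knockdown, with the deposited scale (full colour) and with equal totals (pale). E2F target genes were 16 higher and 1 lower after SOX2 knockdown and 4 higher and 10 lower after circRMST knockdown.

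Both reagents to a target did not always give the same values. With circRMST shRNA 2 against shRNA 1, 2 members were higher and 1 lower (19.1% of all genes passed), with SOX2 siRNA 2 against siRNA 1, 1 and 1 (18.5%), and with NKX2-1 siRNA 2 against siRNA 1, 1 and 3 (26.5%). Against their controls, 4 members were higher and 2 lower with SOX2 siRNA 1 (53.1% of all genes passed), 5 and 2 with SOX2 siRNA 2 (49.1%), 5 and 1 with NKX2-1 siRNA 1 (39%) and 6 and 2 with NKX2-1 siRNA 2 (33.5%). The last count fell to 2 and 2 without NKX2-1 siRNA 2 replicate 1 and to 4 and 1 without NKX2-1 siRNA 2 replicate 2 or without si-control replicate 3. Of the 3 members called for circRMST shRNA 2 against shRNA 1, 0 were left without shRNA 1 replicate 1 or shRNA 2 replicate 1. Of the 2 for SOX2 siRNA 2 against siRNA 1, 0 were left without SOX2 siRNA 2 replicate 1 and 1 without SOX2 siRNA 1 replicate 2 or SOX2 siRNA 2 replicate 2. E2F1 was called higher with circRMST shRNA 2 (log2 difference 0.55, SE 0.09, adjusted p = 1.99e-05) and not with shRNA 1 (log2 difference 0.15, SE 0.09, adjusted p = 0.156).

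**Figure D5:**
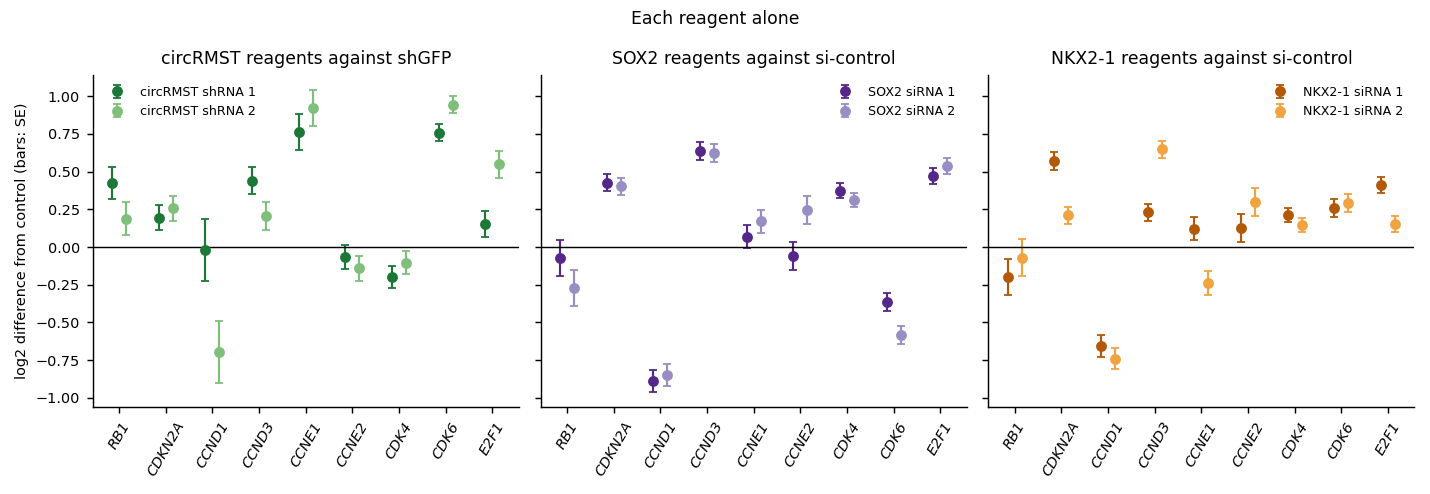
Log2 difference from control (y axis) of the 9 tested members (x axis) for each reagent alone; bars are SE. CCND1 is at -0.02 with circRMST shRNA 1 and -0.69 with shRNA 2, and CCND3 is at 0.23 with NKX2-1 siRNA 1 and 0.65 with siRNA 2.

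Over the 11 siRNA libraries, the genes whose log2 levels ran most like E2F1 among 12867 with a symbol and a mean of at least 50 were AFG3L1P, TUBA1B and ZC3H4 (Pearson r = 0.98, 0.98 and 0.97). For CCND1 they were PPP1R15A, TNFSF15 and TREM1 (r = 0.99, 0.98 and 0.98). These are the top of a search across genes, the libraries fall into 5 groups, and no p is given.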

How the data were processed

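RNA-seq of 17 libraries was used: 6 of total RNA from the shRNA experiment and 11 of poly(A) RNA from the siRNA experiment; 10 ChIP-seq samples were not analysed here. Reads were trimmed with cutadapt 2.5, aligned with STAR 2.5.2b to hg38 and normalized with DESeq2, per the submitters' processing notes. The gene annotation, the counting tool and its strand setting are not given in the sources used here. The deposited signal values are the authors' normalized counts, that is read counts divided by a size factor. All values were whole multiples of 1 read within a tolerance of 0.05 reads (100%), so reads were recovered. Features of non-human sequence (55 and 38) and pseudoautosomal Y copies (7 and 11) were left out.

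Genes whose mean reached 10 normalized counts were fitted with limma 3.58.1 (R 4.3.3) on log2(value + 1), with 1 mean per reagent, all libraries of a table, a trended prior and two-sided tests, at an adjusted p threshold of 0.05. The smaller library totals of the siRNA table limit its precision at low counts. On simulated data with genes changed by a log2 difference of 1, up or down, limma recovered all 75 and 74 genes with a mean of at least 50 and 63.2% and 57.7% of those between 10 and 50 (circRMST and SOX2 comparisons, 18888 and 16686 genes). The simulation gave every gene the same dispersion and changed a small part of the genes. Since all member differences were smaller than 1, it does not give the power to find them. Alternatives were other pseudocounts, filters and scalings, edgeR 4.0.16 and DESeq2 1.42.0 on recovered reads, a replicate block, and leaving out each library; counts over the gene lists under them were added after seeing the data. From the E2F targets and the other RB and E2F machinery, up to 2 genes per direction are named. These are the ones with the largest called change and a mean of at least 50. All 6 CDK inhibitors are named whatever their level. Values of single genes on these lists that fall under a reporting restriction are not reported here. The members and lists were chosen with earlier results of these data known. Replicates are called biological in the labels, but nothing says that they came from separate cultures, so p-values measure the spread between these samples only. Coordinates and promoter sequences are from RefSeq on GRCh38.p14, with windows of 300 bases.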

Additional observations from a re-analysis of the deposited data

Results flagged for a closer look

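The reagents to one target differed for 9 values by limma's test of the difference itself, with Benjamini-Hochberg adjusted p-values over all genes. With circRMST shRNA 2 against shRNA 1, CDK6 was higher by 0.18 on the log2 scale (adjusted p = 0.0259), E2F1 was higher by 0.40 (adjusted p = 0.00242) and CCND1 differed by -0.67 (adjusted p = 0.0232). With SOX2 siRNA 2 against siRNA 1, CDK6 differed by -0.22 (adjusted p = 0.0171) and CCNE2 by 0.31 (adjusted p = 0.0347). With NKX2-1 siRNA 2 against siRNA 1, CCND3 differed by 0.42 (adjusted p = 1.41e-05), CDKN2A by -0.36 (adjusted p = 8.08e-05), CCNE1 by -0.36 (adjusted p = 0.00181) and E2F1 by -0.26 (adjusted p = 0.00128). In all 9 the libraries of both reagents did not overlap, which adds no support, since the test picked them on these same libraries. With circRMST shRNA 2 against shRNA 1, 4 members lay wholly above and 4 wholly below, though 3 were called. The share of all genes that separate in this way was not counted, so this shows nothing particular to the members. Over all genes, 19.1%, 18.5% and 26.5% passed in these comparisons of circRMST, SOX2 and NKX2-1 reagents.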

How the results depend on the processing

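The counts of members called in the circRMST, SOX2 and NKX2-1 knockdowns and in SOX2 against NKX2-1 knockdown stayed within 1.5 times under every alternative run. These totals take no account of direction. The circRMST split went from 6 higher and 0 lower to 3 and 3 with equal totals and 5 and 2 with quantile normalization. The members called with circRMST shRNA 2 against shRNA 1 went from 3 to 0 with no filter on low values and were between 0 and 2 when 1 library was left out, at 0 without shRNA 1 replicate 1 or shRNA 2 replicate 1. Those with SOX2 siRNA 2 against siRNA 1 went from 2 to 0 with no filter or with only the groups of the comparison fitted, to 1 with quantile normalization, DESeq2 or the replicate block, and were between 0 and 2 with 1 library left out, at 0 without SOX2 siRNA 2 replicate 1. Same-numbered libraries had correlations of -0.13 to 0.10 and -0.35 to 0.04, so the numbers did not pair the samples. The correlations are of deviations from group means, which are equal and opposite in a group of 2 libraries. The highest value, 0.35, was between NKX2-1 siRNA 1 replicate 2 and SOX2 siRNA 1 replicate 1. By construction the other libraries of these groups gave the same value, and the same-numbered ones -0.35. The value therefore cannot tell which pair of libraries it comes from. The first pair named had the most reads of the siRNA experiment, 50.1 M and 30.7 M, and the replicate block sets these libraries apart. The part of depth in this was not tested. With the replicate block the members called were 6 in each of the circRMST, SOX2 and NKX2-1 knockdowns and in SOX2 against NKX2-1 knockdown. CCNE2 was then no longer called after NKX2-1 knockdown (adjusted p = 0.187). In counts added after seeing the data, the 8 members called with NKX2-1 siRNA 2 against si-control became 4 with no filter or with the replicate block and between 4 and 7 with 1 library left out, and the 5 with circRMST shRNA 2 against shGFP became 3 with no filter.

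Of 1890 recomputed member differences, 1748 kept direction and side of the threshold, 89 lost and 29 gained a call, and 24 turned sign, none of them called on the deposited scale. With quantile normalization RB1 was at 0.00336 after SOX2 knockdown, 0.11 for SOX2 against NKX2-1 and 0.12 with SOX2 siRNA 1, CCNE2 at 0.0315 with SOX2 siRNA 1, and CDKN2A at -0.0529 for SOX2 against NKX2-1. With equal totals, without and with mitochondrial and RN7SL genes removed, CDKN2A was at -0.0292 and -0.0290 for SOX2 against NKX2-1, and CDK6 at -0.0250 and -0.00843 for NKX2-1 siRNA 2 against siRNA 1. Leaving out 1 library turned CCNE2 in the circRMST knockdown (-0.26 to 0.0546), with shRNA 1 (-0.22 to 0.0916) and with shRNA 2 (-0.30 to 0.0176), CCND1 with circRMST shRNA 1 (-0.26 to 0.23) and CCNE1 for shRNA 2 against shRNA 1 (-0.0222 to 0.34). For SOX2 against NKX2-1 it turned CDKN2A (-0.0291 to 0.0774) and RB1 (-0.0907 to 0.0159). For SOX2 siRNA 1 it turned CCNE2 (-0.21 to 0.0944), for SOX2 siRNA 2 against siRNA 1 it turned CCND3 (-0.12 to 0.0954), CDKN2A (-0.13 to 0.0817), CCND1 (-0.0325 to 0.11) and E2F1 (-0.0428 to 0.18), and for NKX2-1 siRNA 2 against siRNA 1 CDK6 (-0.0441 to 0.12). The cause of these changes was not tested. Genes with a mean under 50 normalized counts were recovered less often in simulated data.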
